A study of Mus musculus with 6 samples.

Results

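The genes described here encode 4 nucleases and 2 mitophagy receptors that act while keratinocytes lose their nuclei and organelles: Dnase1l2, Dnase2a, Trex2, Endou, Bnip3 and Bnip3l. They were taken by name from the 55487 Ensembl genes of each library, with earlier results of these data known, and all 6 matched 1 identifier each. RNA came from the epidermis of newborn mice at postnatal day 0, lifted from back skin with dispase and dissociated with trypsin, with no cell sort named. The 3 libraries labelled Control and the 3 labelled Znf750 cKO, written Znf750_cKO below, were compared. The cKO label marks a loss of Znf750, whose mouse symbol is Zfp750, a transcription factor known for its part in epidermal differentiation. No source used here gives the strain, the Cre driver of the knockout, the alleles carried by the control pups or how many pups went into a library. Where nothing says that replicates came from separate litters or pups, the p-values measure only the spread between these samples.

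Cornification is a programmed death in which granular layer keratinocytes clear their nucleus and organelles and turn into flat corneocytes. DNases cut the nuclear DNA, endoribonucleases cut RNA, and mitochondria are tagged for autophagy by receptors in their outer membrane. Where these steps fail, nuclei stay in the outer layers, a state called parakeratosis. Messenger RNA says nothing of the activity of these enzymes or of the clearance itself.

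Levels are FPKM, fragments scaled to transcript length and to library size, so they can be set side by side between genes. Zfp750 stood at 32.0 to 44.8 FPKM in the control libraries and at 0.83 to 1.47 in the Znf750_cKO libraries, in accord with the labels. Steps left in the FPKM values place the depth at an estimated 21.5 to 35.4 megareads per library. Among the cell type markers those of keratinocytes had by far the highest sums, with 10 markers at 30200 to 36600 FPKM in control and 34500 to 44200 in Znf750_cKO. The 14 leukocyte markers summed to 166 to 276 FPKM in control and only 26.0 to 34.8 in Znf750_cKO, and 11 of the 12 tested ones fell in limma, among them Tyrobp and Ctss. With the replicate number as a block 9 of the 12 fell, and without replicate 2 of both groups 5 did. Of these 14 markers Cd207 stood below 0.1 FPKM in each library. The 7 erythroid markers summed to 19.8 to 52.8 FPKM against 6.92 to 11.1, with 1 of 3 tested ones called. The 5 Merkel cell markers summed to 15.6 to 24.3 FPKM against 2.47 to 3.87, a sum that rests on Chga, at 16.6 ± 4.55 against 1.09 ± 0.21 FPKM, which was the 1 called of 2 tested. In these suspensions fewer cells of a type and less RNA per cell cannot be told apart.

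None of the 6 genes passed limma at an adjusted p under 0.05. Over all 13688 tested genes 4.22% were called, 1.11% higher and 3.1% lower in Znf750_cKO. At an unadjusted p under 0.05 there were 2 of the 6, Trex2 and Dnase2a, both lower, against 21.3% of all tested genes. The same 2 genes were the only ones of the 6 whose groups did not overlap, a state that 28% of tested genes reached, 19.7% in the lower direction and 8.28% in the higher. With the replicate number as a block, where 2.86% of tested genes were called, 0 of the 6 passed, and likewise in limma without a variance trend. A total of 4 of the 6 log2 changes were negative, and their median was -0.22 beside -0.08 over all tested genes. The test is on log2(FPKM + 1), which understates the change of genes with low values.

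**Figure D1:**
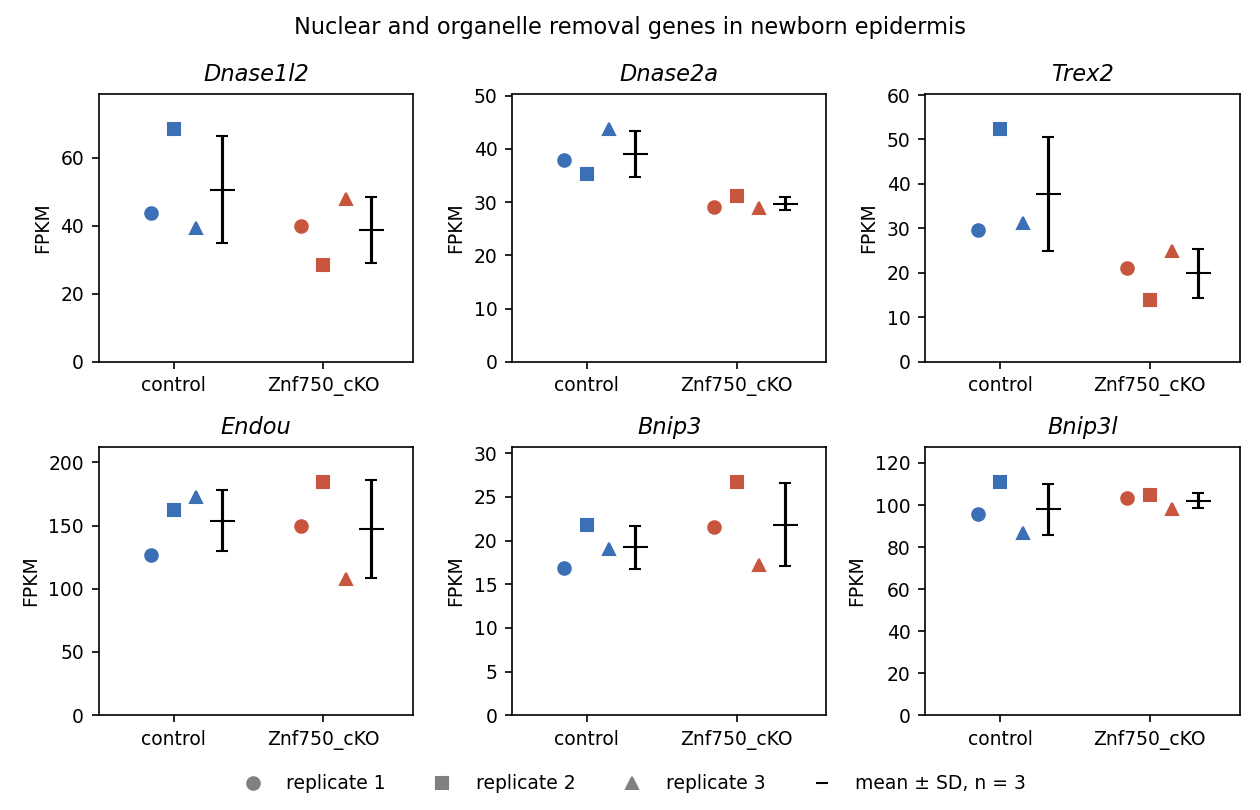
FPKM (vertical axes, from 0) of the 6 genes in each library, control in blue and Znf750_cKO in red, with the replicate number as the symbol and the mean ± SD of 3 libraries in black. Trex2 and Dnase2a are the genes whose 3 Znf750_cKO libraries all lie under the 3 control libraries, and the other 4 genes overlap.

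Trex2 had the largest difference of the 6. It encodes an exonuclease that removes bases from the 3′ ends of DNA and is known for its expression in keratinocytes. Its level was 29.58, 52.47 and 31.22 FPKM in control replicates 1, 2 and 3 and 21.02, 13.94 and 24.88 in Znf750_cKO replicates 1, 2 and 3. All 3 Znf750_cKO libraries lay under the lowest control library, and control replicate 2 stood well above the rest. The means were 37.8 ± 12.8 and 19.9 ± 5.55 FPKM (SD, n = 3 per group), a 1.89-fold lower mean. The log2 change was -0.88 (SE 0.29, 95% interval -1.57 to -0.18, limma adjusted p = 0.15), which did not pass. Of all tested genes, 3.46% had a lower log2 change. Across 6 fits that leave out 1 library the log2 change ran from -1.05 to -0.62, with limma adjusted p from 0.15 to 0.30, and it was -0.39 without replicate 2 of both groups.

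Trex2 (ENSMUSG00000031372) lies on chromosome X at 73433705 to 73435344, minus strand, GRCm38, with 1 annotated transcript of 1017 bases, and overlaps no other annotated gene. The sequence before its start is shown because Trex2 differed most of the 6. It covers chrX:73435344-73435593 on the minus strand, from RefSeq on GRCm38.p6. Capitals mark matches to CACCC, the core bound by Klf-type zinc finger factors, and to TATAAA, searched on both strands.

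Trex2 promoter: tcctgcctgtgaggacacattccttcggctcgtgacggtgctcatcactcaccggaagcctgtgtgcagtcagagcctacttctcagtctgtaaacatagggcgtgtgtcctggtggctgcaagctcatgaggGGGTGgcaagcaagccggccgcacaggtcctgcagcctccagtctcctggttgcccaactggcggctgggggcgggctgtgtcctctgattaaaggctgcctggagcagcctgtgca

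The Trex2 window held 1 match to CACCC, on the opposite strand as GGGTG, and no match to TATAAA. Of 32851 RefSeq promoters of the same length 52.0% held CACCC and 12.4% held TATAAA. These matches are a description of the letters and not of binding.

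Dnase1l2, a DNase1-like endonuclease that degrades nuclear DNA as skin, hair and nail cells cornify, moved less and its groups overlapped. Its level was 43.7, 68.6 and 39.5 FPKM in control replicates 1, 2 and 3 and 39.9, 28.6 and 47.9 in Znf750_cKO replicates 1, 2 and 3. The means were 50.6 ± 15.7 and 38.8 ± 9.68 FPKM (SD, n = 3 per group). The log2 change was -0.36 (SE 0.26, 95% interval -0.99 to 0.27, limma adjusted p = 0.49). The interval of the fold reaches down to 0.50 of the control level, so these libraries leave room for a large loss. Without replicate 2 of both groups, the highest and the lowest library, the log2 change turned to 0.07 (adjusted p = 0.84). The gene (ENSMUSG00000024136) lies on chromosome 17 at 24440081 to 24443105, minus strand, and overlaps no annotated gene.

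Trex2 and Dnase1l2 varied together from library to library, with Pearson r = 0.92 of log2(FPKM + 1) over the 6 libraries, which mix both groups. Both were highest in control replicate 2 and lowest in Znf750_cKO replicate 2. The ratio of Trex2 to Dnase1l2 within a library was 0.68, 0.77 and 0.79 in control and 0.53, 0.49 and 0.52 in Znf750_cKO. The ratio did not overlap between the groups and differed by -0.23 (exact permutation test, two-sided p = 0.10, n = 3 per group, the smallest p that 3 against 3 allows). The ratio was chosen after the values were seen.

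The 2 genes were set beside genes of the granular layer, where cornification takes place. The mean log2(FPKM + 1) of 16 granular layer genes was 7.17, 7.75 and 7.09 in control replicates 1, 2 and 3 and 7.12, 6.74 and 7.03 in Znf750_cKO replicates 1, 2 and 3. It was therefore highest and lowest in the same 2 libraries as Trex2 and Dnase1l2. Less this granular mean, Trex2 stood at -2.23, -2.01 and -2.08 in control and at -2.66, -2.84 and -2.33 in Znf750_cKO. These values did not overlap (exact permutation test, two-sided p = 0.10, n = 3 per group, the smallest p that 3 against 3 allows). Trex2 alone did not overlap either, so this difference in part restates the Trex2 values. Dnase1l2 less the granular mean stood at -1.69, -1.63 and -1.75 in control and at -1.76, -1.85 and -1.41 in Znf750_cKO, which overlapped. The part of granular layer content in the Trex2 and Dnase1l2 levels was not tested.

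**Figure D2:**
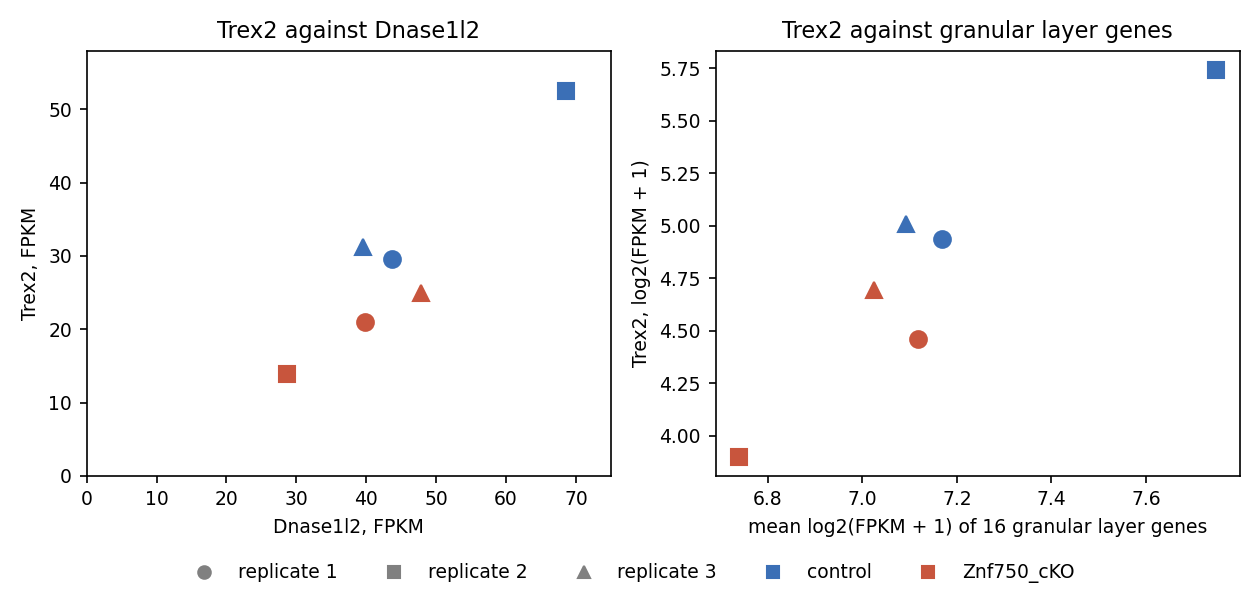
Left, Trex2 against Dnase1l2, both in FPKM; right, Trex2 as log2(FPKM + 1) against the mean log2(FPKM + 1) of 16 granular layer genes, with 1 point per library, control in blue and Znf750_cKO in red. Control replicate 2 is at the upper right and Znf750_cKO replicate 2 at the lower left of both plots, and the Znf750_cKO points hold less Trex2 for their Dnase1l2, at ratios of 0.49 to 0.53 against 0.68 to 0.79.

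Dnase2a, the acid DNase of lysosomes, had the smallest unadjusted p of the 6. Its level was 37.9, 35.3 and 43.8 FPKM in control replicates 1, 2 and 3 and 29.2, 31.2 and 28.9 in Znf750_cKO replicates 1, 2 and 3. The groups did not overlap, by a gap of 31.2 against 35.3 FPKM between the nearest libraries. The means were 39.0 ± 4.38 and 29.7 ± 1.24 FPKM (SD, n = 3 per group), with a log2 change of -0.38 (SE 0.11, 95% interval -0.63 to -0.12, limma adjusted p = 0.10), which did not pass. The difference was negative in each of 15 alternative settings, from -0.48 to -0.27. Macrophages also express this enzyme, and the leukocyte markers were lower in the same libraries, at 26.0 to 34.8 against 166 to 276 FPKM in sum; their part in the Dnase2a level was not tested. The gene (ENSMUSG00000003812) lies on chromosome 8 at 84908560 to 84922915, plus strand, where 1616 of its 5389 annotated exon bases overlap exons of Mast1 on the other strand. Mast1 stood at 0.83 to 1.62 FPKM, but with the strand of the reads unstated its reads and those of Dnase2a cannot be told apart there.

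Endou, an endoribonuclease that cuts RNA at uridines, was the most abundant of the 6. Its level was 126, 162 and 172 FPKM in control replicates 1, 2 and 3 and 150, 185 and 107 in Znf750_cKO replicates 1, 2 and 3. The highest and the lowest library were both Znf750_cKO. The means were 154 ± 24.1 and 147 ± 38.7 FPKM (SD, n = 3 per group), with a log2 change of -0.08 (SE 0.21, 95% interval -0.58 to 0.41, limma adjusted p = 0.89). The sign of this small difference changed with the setting, and it was 0.22 without replicate 3 of both groups. Endou (ENSMUSG00000022468) lies on chromosome 15 at 97711015 to 97731339, minus strand, clear of other annotated genes.

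The mitophagy receptors Bnip3 and Bnip3l, also called Nix, sit in the outer mitochondrial membrane and bind LC3 and GABARAP proteins of the autophagosome. Neither passed, and both had small positive differences. Bnip3l, the receptor that clears mitochondria from maturing red cells and is also known in keratinocyte differentiation, stood at 95.8, 111 and 86.8 FPKM in control replicates 1, 2 and 3. In Znf750_cKO replicates 1, 2 and 3 it stood at 103, 105 and 98.1 FPKM, inside the range of the control libraries. The means were 97.9 ± 12.3 and 102 ± 3.55 FPKM (SD, n = 3 per group), with a log2 change of 0.07 (SE 0.11, 95% interval -0.20 to 0.33, limma adjusted p = 0.81). The interval allows a fold between 0.87 and 1.26, the narrowest of the 6 on the log2 scale next to that of Dnase2a.

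Bnip3, which is known to be induced by low oxygen, stood at 16.9, 21.8 and 19.0 FPKM in control replicates 1, 2 and 3. In Znf750_cKO replicates 1, 2 and 3 it stood at 21.6, 26.7 and 17.2 FPKM, so replicate 2 was highest in each group and the groups overlapped. The means were 19.2 ± 2.45 and 21.8 ± 4.78 FPKM (SD, n = 3 per group), with a log2 change of 0.16 (SE 0.17, 95% interval -0.23 to 0.55, limma adjusted p = 0.65). The ratio of Bnip3l to Bnip3 was 5.67, 5.10 and 4.56 in control and 4.80, 3.92 and 5.71 in Znf750_cKO, with overlap (exact permutation test, two-sided p = 0.70, n = 3 per group).

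Both receptor genes share sequence with other annotated genes. Of the 100-base stretches in annotated transcripts, 24.6% for Bnip3 and 14.0% for Bnip3l also occur in transcripts of other genes, among them Gm45507, which overlaps the 3′ part of Bnip3 on the other strand, and the pseudogene Bnip3l-ps. Gm45507 was listed at 0 in each library and Bnip3l-ps at 0.15 FPKM or less, while AC160336.1, which shares sequence with Bnip3, stood at 1.13 to 4.15 FPKM. Of the 2265 exon bases of Bnip3, 504 overlap Gm45507, so part of its share can be the same locus on the other strand. Dnase2a shares 23.5% of its stretches, with Mast1. The levels of Bnip3, Bnip3l and Dnase2a are therefore less certain than those of Trex2, Dnase1l2 and Endou, which share 0 such stretches. Bnip3 (ENSMUSG00000078566) lies on chromosome 7 at 138890836 to 138909519, minus strand, and Bnip3l (ENSMUSG00000022051) on chromosome 14 at 66985239 to 67008877, minus strand.

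The sequence before the Bnip3 start is shown because other genes of the low oxygen response were measured beside it below. It covers chr7:138909507-138909756 on the minus strand, from RefSeq on GRCm38.p6. Capitals mark ACGTG and GCGTG, the core letters of the hypoxia response element, searched on both strands.

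Bnip3 promoter: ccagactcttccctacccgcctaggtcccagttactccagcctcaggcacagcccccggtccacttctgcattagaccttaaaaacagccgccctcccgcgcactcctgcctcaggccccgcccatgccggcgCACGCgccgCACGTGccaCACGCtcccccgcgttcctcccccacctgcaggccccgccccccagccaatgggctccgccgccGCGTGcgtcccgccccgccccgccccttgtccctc

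The Bnip3 window held 2 matches to ACGTG, which overlap on the 2 strands of a single palindrome, and 3 to GCGTG. Of 32851 RefSeq promoters of the same length 38.6% held at least 1 of these letters. The GC content of the window was 72.4%, so matches to GC-rich letters are frequent in it.

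In the order of control levels Endou came first at 154 FPKM, then Bnip3l at 97.9, Dnase1l2 at 50.6, Dnase2a at 39.0, Trex2 at 37.8 and Bnip3 at 19.2. Dnase1l2, Dnase2a and Trex2 overlapped with their neighbours in that order, while Endou, Bnip3l and Bnip3 stood clear of theirs in all 3 control libraries. In Znf750_cKO Trex2 came last at 19.9 FPKM, overlapping with Bnip3 at 21.8. The levels in control were above those of 66.4% of tested genes for Bnip3 and of 96.3% for Endou.

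**Figure D3:**
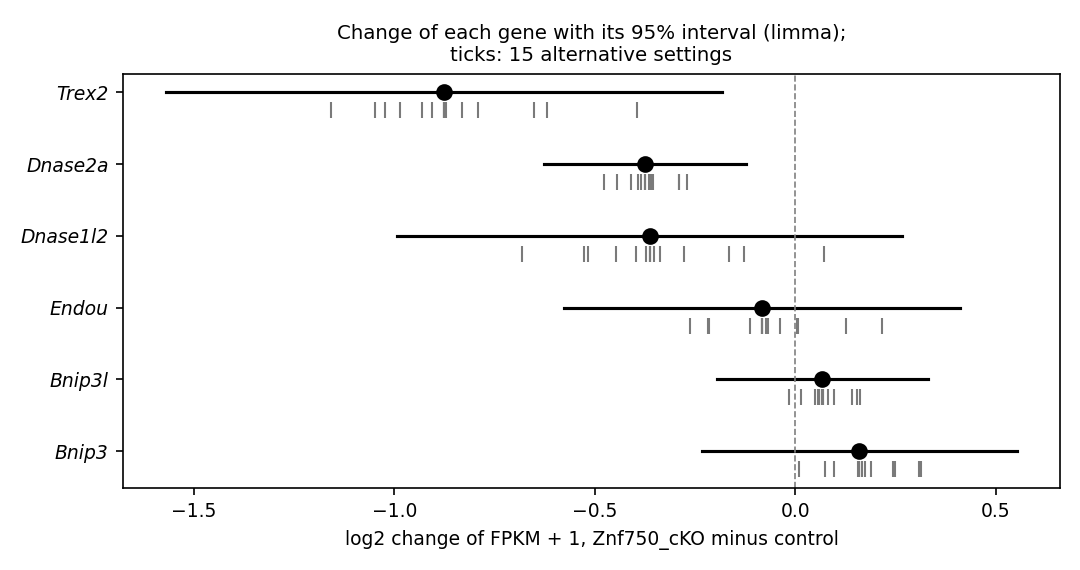
Log2 change of FPKM + 1 (horizontal axis, Znf750_cKO minus control) for each gene as a black point with its 95% interval from limma, and the values under 15 alternative settings as grey ticks. The intervals of Trex2 (-1.57 to -0.18) and Dnase2a (-0.63 to -0.12) lie under 0 before adjustment over all genes, and those of the other 4 genes span 0.

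Among 20 other nucleases, 19 were tested, 4 fell and 0 rose, and the median log2 change was -0.18 beside -0.08 over all tested genes. At an unadjusted p under 0.05 there were 8 of the 19, against 21.3% of all tested genes. The groups of 10 did not overlap in the lower direction and of 1 in the higher, against 19.7% and 8.28% of all tested genes. Endod1, named for its endonuclease domain, stood at 5.69 ± 1.34 FPKM in control and fell to 0.81 ± 0.13, a log2 change of -1.87 with a limma adjusted p of 0.0038. Pld4, a lysosomal exonuclease of myeloid cells, stood at 4.31 ± 1.09 FPKM in control and fell to 0.52 ± 0.15, a log2 change of -1.78 with a limma adjusted p of 0.0057. The others that fell, named after their values were seen, were Samhd1, a dNTP hydrolase strongly expressed in myeloid cells, from 12.7 ± 1.29 to 5.63 ± 0.42 FPKM, and the secreted ribonuclease Rnase1, from 19.2 ± 5.41 to 7.33 ± 1.37 FPKM (limma adjusted p = 0.0063 and 0.019). Endod1, Pld4 and Samhd1 passed whichever of the 6 libraries was left out, and Rnase1 did not without Znf750_cKO replicate 1 (adjusted p = 0.085). None of the 4 passed without replicate 2 of both groups, at adjusted p from 0.074 to 0.096. These genes fell beside the leukocyte markers given above, whose part was not tested.

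Close relatives of Dnase1l2, Dnase2a and Trex2, named after their values were seen, had lower FPKM levels than these genes. Against Dnase1l2 at 50.6 FPKM in control, Dnase1l1 stood at 11.5, Dnase1l3 at 2.04 and Dnase1 at 1.51. Dnase2b, a relative of Dnase2a known for clearing lens nuclei, was listed at 0 in each library. Trex1, the broadly expressed relative of Trex2, had 10.1 ± 0.58 FPKM in control against 9.41 ± 0.23 in Znf750_cKO, a log2 change of -0.10 with a limma adjusted p of 0.67. The ratio of Trex2 to Trex1 was 3.02, 5.34 and 2.89 in control and 2.28, 1.44 and 2.65 in Znf750_cKO, with no overlap (exact permutation test, two-sided p = 0.10, n = 3 per group, the smallest p that 3 against 3 allows). Trex1 ran only from 9.2 to 10.81 FPKM over the libraries and Trex2 alone did not overlap, so this ratio mostly restates the Trex2 values.

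Of 19 other mitophagy genes 17 were tested, and 1 rose, where 4.22% of all tested genes were called and 1.11% were higher. The same gene was the only 1 of the 17 with an unadjusted p under 0.05, against 21.3% of all tested genes. The median log2 change was -0.07, beside -0.08 over all tested genes. Pptc7, a mitochondrial phosphatase known to limit the amount of BNIP3 and NIX protein, stood at 4.99 ± 0.99 FPKM in control and rose to 8.69 ± 0.61, a log2 change of 0.70. Its limma adjusted p was 0.044, or 0.056 when the replicate number was a block. It passed only without control replicate 1 among the fits that leave out 1 library, with adjusted p from 0.073 to 0.15 in the other 5, and it was at 0.070 after TPM scaling. Other mitophagy receptors did not pass. Among them, named after their values were seen, Fkbp8 stood at 117 ± 7.78 and 112 ± 4.96 FPKM and Fundc1 at 22.9 ± 2.60 and 20.6 ± 1.72 in control and Znf750_cKO.

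All 29 genes of the autophagy core were tested, and 0 passed limma, while 6 had an unadjusted p under 0.05 and 0 passed with the replicate block. Over all tested genes 21.3% had such an unadjusted p. The most abundant was Gabarap, a ubiquitin-like protein that mitophagy receptors bind, with a log2 change of -0.17 (adjusted p = 0.43). The lowest changes, named after their values were seen, were those of Atg9b, a lipid scramblase of the growing autophagosome, and Gabarapl2. Atg9b stood at 46.3, 43.2 and 32.9 FPKM in control replicates 1, 2 and 3. In the matching Znf750_cKO replicates it stood at 19.4, 9.47 and 20.5 FPKM, a log2 change of -1.32 with a limma adjusted p of 0.070. Gabarapl2 stood at 127, 182 and 109 FPKM in the control libraries, against 70.8, 74.0 and 91.8 in the Znf750_cKO libraries, a log2 change of -0.79 with a limma adjusted p of 0.071. With Znf750_cKO replicate 2 left out 1 gene of the 29 passed and was lower, the only such single-library fit of 6 in which any did. Without replicate 3 of both groups 1 gene of the 29 passed and was lower. The groups did not overlap for Atg9b or for Gabarapl2. Of the 29 genes 4 were lower and 3 higher without overlap, where 28% of all tested genes did not overlap in either direction, and Wipi1, which binds lipids of the forming autophagosome, was one of the higher ones at a log2 change of 0.51 (limma adjusted p = 0.11).

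Of 24 lysosome genes 1 fell and 0 rose, with a median log2 change of -0.09. An unadjusted p under 0.05 was reached by 11 of the 24, against 21.3% of all tested genes. Groups did not overlap for 9 in the lower direction and 4 in the higher, against 19.7% and 8.28% of all tested genes. Hexa, a subunit of the lysosomal hexosaminidase, stood at 3.70 ± 0.83 FPKM in control and fell to 1.49 ± 0.35, a log2 change of -0.91. Its limma adjusted p was 0.042, or 0.077 when the replicate number was a block. Hexa missed the threshold whichever library was left out, with adjusted p from 0.057 to 0.15, and was at 0.12 after quantile normalization. Lysosome genes are also abundant in macrophages, and the part of the lower leukocyte markers in the Hexa level was not tested. With median-ratio scaling 1 lysosome gene rose and 0 fell.

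None of 12 nuclear envelope genes passed limma, where 2 had an unadjusted p under 0.05, and none passed with the replicate block. Of all tested genes, 21.3% had an unadjusted p under 0.05. Lmna, which encodes the A-type lamins of the nuclear lamina, was the most abundant, with 338 ± 18.2 FPKM in control against 272 ± 6.69 in Znf750_cKO, a log2 change of -0.31 with a limma adjusted p of 0.12. Among 15 genes of the mitochondrial surface and of mitochondrial fusion and fission, 0 passed limma, 2 had an unadjusted p under 0.05, and 0 passed with the block. Tomm20, a receptor for proteins entering mitochondria, had 127 ± 13.4 FPKM in control against 159 ± 9.37 in Znf750_cKO, a log2 change of 0.33 with a limma adjusted p of 0.14. The median of that list was 0.07. The 13 transcripts of the mitochondrial genome summed to 93900 to 108000 FPKM in control and 86500 to 92200 in Znf750_cKO, sums that did not overlap. None passed, and 1 had an unadjusted p under 0.05. A total of 12 of the 13 had a negative log2 change (8515 of all 13688 tested genes), with a median of -0.15 beside -0.08 over all tested genes. Of the 13, 2 were lower without overlap, against 19.7% of all tested genes.

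Of 21 hypoxia response genes 20 were tested, 15 had a positive log2 change (5173 of all 13688 tested genes), and the median was 0.22 beside -0.08 over all tested genes. At an unadjusted p under 0.05 there were 7 of the 20, against 21.3% of all tested genes. Only P4ha1, a collagen prolyl hydroxylase subunit, passed, with 8.89 ± 1.02 FPKM in control and a rise to 17.3 ± 2.08, a log2 change of 0.89 with a limma adjusted p of 0.016. Leaving out control replicate 2 or 3 brought P4ha1 to 0.062 or 0.051. A total of 8 of the 20 had groups that did not overlap in the higher direction, which 8.28% of all tested genes reached, among them the glucose transporter Slc2a1 and the glycolytic enzymes Pgk1 and Ldha (named after their values were seen), at log2 changes of 0.60, 0.52 and 0.41 and adjusted p = 0.079, 0.12 and 0.17. Bnip3, from the same response, overlapped between the groups.

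Of 15 tested genes of the Bcl2 family, to which Bnip3 and Bnip3l are related through a BH3-like stretch, 1 rose and 1 fell. Over all tested genes 1.11% were higher and 3.1% lower. This list held 3 genes with an unadjusted p under 0.05, against 21.3% of all tested genes. Its groups did not overlap for 2 genes in the higher direction and 1 in the lower, against 8.28% and 19.7% of all tested genes. Pmaip1, also called Noxa, a BH3-only protein that promotes apoptosis, stood at 13.4 ± 0.55 FPKM in control and rose to 28.1 ± 0.51, a log2 change of 1.01 (SE 0.10) with a limma adjusted p of 0.0024. Its level was 13.52, 13.95 and 12.85 FPKM in control and 28.06, 28.57 and 27.55 in Znf750_cKO, and it passed in each of the 15 alternative settings. Bcl2a1b, a survival protein of leukocytes, stood at 2.39 ± 0.77 FPKM in control and fell to 0.31 ± 0.13, a log2 change of -1.35 with a limma adjusted p of 0.018, beside the leukocyte markers, whose part was not tested. It did not pass without control replicate 1 or 2 or Znf750_cKO replicate 1, at adjusted p of 0.062, 0.067 and 0.066. Copies of Bcl2a1 are near-identical, so its level is uncertain.

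Of the 16 granular layer genes 2 fell and 0 rose, with a median log2 change of -0.23. An unadjusted p under 0.05 was reached by 9 of the 16, against 21.3% of all tested genes. Groups did not overlap for 6 in the lower direction and 0 in the higher, against 19.7% and 8.28% of all tested genes. Casp14, a protease of cornification, stood at 127 ± 34.9 FPKM in control and fell to 50.5 ± 9.60, a log2 change of -1.29 with a limma adjusted p of 0.025. Aloxe3, a lipoxygenase of the skin barrier, stood at 37.9 ± 6.49 FPKM in control and fell to 19.5 ± 4.42, a log2 change of -0.93. Its limma adjusted p was 0.043, or 0.082 when the replicate number was a block. Casp14 did not pass without control replicate 1 or Znf750_cKO replicate 1 or 2, at adjusted p of 0.082, 0.070 and 0.072. Aloxe3 passed only without control replicate 3, with adjusted p from 0.056 to 0.15 in the other 5 fits. Trex2, at a log2 change of -0.88, was lower than the median of this list and above the log2 changes of Casp14 and Aloxe3.

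**Figure D4:**
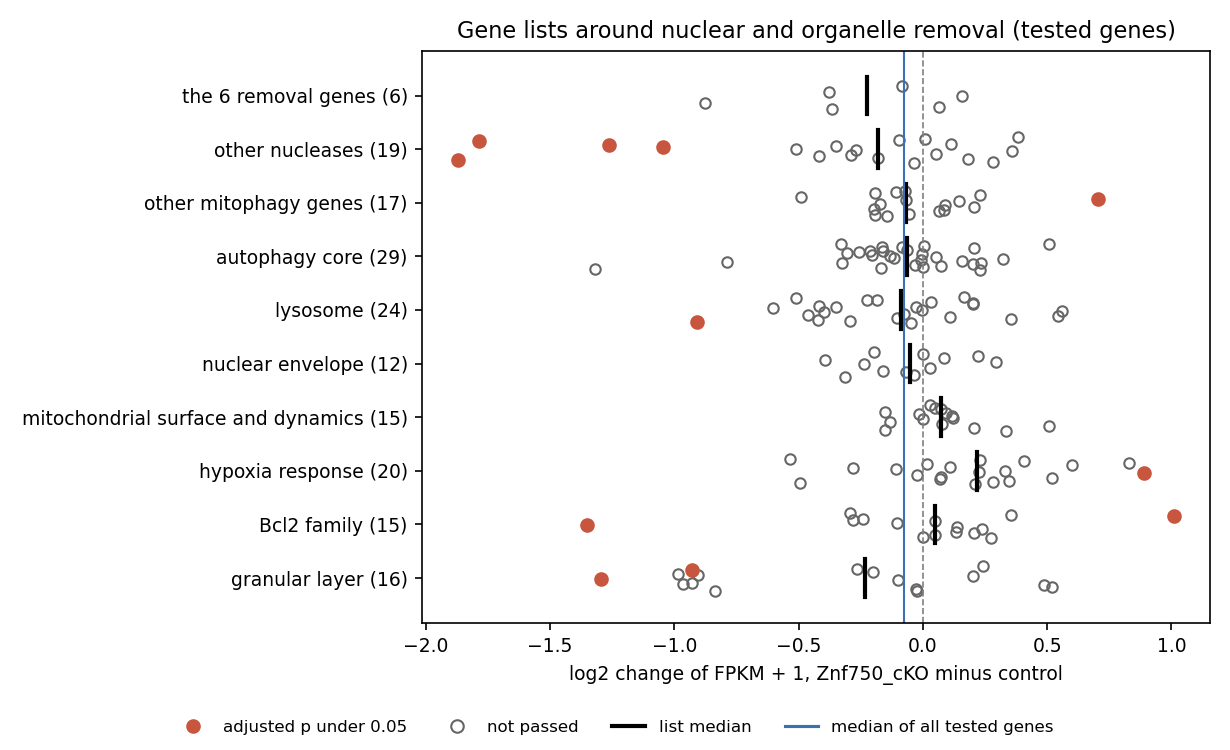
Log2 change of FPKM + 1 (horizontal axis, Znf750_cKO minus control) of each tested gene in 10 lists, with the number tested in brackets, filled red where the limma adjusted p is under 0.05, black bars at list medians and a blue line at the median of all tested genes, -0.08. The 6 removal genes are all open circles, and the red points number 4 among the other nucleases and 2 or fewer in each other list.

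The genes whose levels ran most alike over the 6 libraries were sought for each of the 6 among 11930 genes, by Pearson r of log2(FPKM + 1), as a description of points that share groups and depth. Closest to Dnase1l2 was Smpd3 (r = 0.99), a neutral sphingomyelinase, followed by Mllt1 and Teddm3. Closest to Trex2 were Nop9 (r = 0.99), Cdsn (r = 0.99), the corneodesmosin of corneocyte junctions, and Xkrx. The 3 control libraries held 106, 184 and 101 FPKM of Cdsn, against 72.9, 50.7 and 76.1 in the Znf750_cKO libraries. Dnase2a ran with Ctsf (r = 0.99), a lysosomal cathepsin, Klf11 and Mief2. Endou ran with Pon2 and Ndufs3 (r = 0.98 for both), Bnip3 with Eef1g, Naxd and the suprabasal keratin Krt10 (r = 0.98), and Bnip3l with Gm10123 and Insig1. Between 3 genes for Bnip3l and 78 for Trex2 of the 11930 genes reached an r of 0.95. Among the 6 genes themselves, Endou and Bnip3 had an r of 0.79, and Dnase2a and Bnip3l of -0.61.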

How the data were processed

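Each of the 6 libraries has a table of FPKM values per Ensembl gene, deposited by the authors, with the unit per the file headers. The submitters' processing notes list RSEM 1.2.28, STAR 2.5.2a, cutadapt 1.15 and Trim Galore 0.4.5 among other tools, and the builds GRCm38 and mm10, with no role or order. Per the labels' protocols, RNA was poly(A) selected and read as 100-nucleotide single reads. RSEM, where it made the values, divides reads that fit several genes.

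Symbols matched 55141 of the identifiers, and coordinates are from GENCODE M21 on GRCm38. Where a symbol had more than 1 identifier, the most abundant was used. The 13688 genes that reached 1 FPKM in 3 or more libraries were tested with limma 3.58.1 (R 4.3.3, trend and robust variances) on log2(FPKM + 1), group as the only term, with Benjamini-Hochberg adjustment over all of them; all 6 removal genes passed this filter. "Rose" and "fell" mean an adjusted p under 0.05. The script was tested on simulated data. Errors are SDs over 3 libraries. Plots used Python 3.11.15 and matplotlib 3.10.9.

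The 6 genes and the gene lists were chosen with earlier results of these data known. Besides the 6, the genes named are the 2 called genes with the smallest p in each direction per list, the most abundant gene where none was called, the most abundant and most significant marker of a cell type where it mattered, and the 3 genes most alike each of the 6; a few genes that this rule names are not reported here. Others were chosen after their values were seen.

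Libraries with the same replicate number correlated at 0.31, 0.17 and 0.48 for numbers 1, 2 and 3 after group means were taken off, each over 0.1, so the numbers were treated as pairs in an alternative fit. This pairing comes from the data, since no label explains the numbers. It was not clear-cut, because a mismatch, control 1 against Znf750_cKO 2, reached 0.24. That is also over the limit and above the 0.17 of the matched number 2. All other mismatches had negative values. Taking off group means makes the covariances of a library with the other group cancel out, so these negative values are no further evidence of pairs. Alternatives covered the pseudocount, the filter, scaling, the variance model, the block and each library left out. Depth is not given with FPKM. It was estimated from genes with 1 transcript, where 69.3% to 77.2% of low values per library came within 0.1 of a whole read. At that depth, and with the longest annotated transcript as the length of each gene, the 6 genes rest on an estimated 340 to 12000 reads per library. The largest counting error was then 5.4%, which covers counting error only. Where shorter transcripts prevail, the reads are fewer and the error is larger.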

Additional observations from a re-analysis of the deposited data

How the results depend on the processing

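None of the 6 removal genes passed under any of 15 alternatives, of which the fits without replicate 2 or 3 of both groups were added after seeing the data. The lowest adjusted p was 0.10 for Dnase2a and 0.15 for Trex2. Dnase2a, Trex2 and Bnip3 kept their direction in all 15. Dnase1l2 turned to 0.071 without replicate 2 of both groups and otherwise stayed negative. Endou turned to 0.0050 with median-ratio scaling, 0.0062 and 0.13 with replicate 3 of control or of Znf750_cKO left out, and 0.22 without replicate 3 of both groups. Bnip3l turned to -0.015 without control replicate 3. With 1 library left out the log2 change ran from -0.53 to -0.13 for Dnase1l2, from -0.26 to 0.13 for Endou and from -0.02 to 0.16 for Bnip3l.

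Over all genes, 152 were higher and 425 lower. The counts were 31 and 54 with no filter on low values, which tests 35621 genes, 258 higher and 295 lower with median-ratio scaling, 201 and 218 with quantile normalization, and 136 and 256 with the replicate block. The block changed the calls of Pptc7, Hexa and Aloxe3 among the companion genes named and of none of the 6. With 1 library left out the counts ran from 34 to 110 higher and from 66 to 259 lower. Without replicate 2 of both groups they were 30 and 23, and without replicate 3 of both groups 95 and 295. No scaling moved the median of all genes by more than 0.091. The cause of these shifts was not tested.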
